A study of Mus musculus with 12 samples.

Results

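Mouse skin excised 14 days after thermal injury was compared with mouse skin labelled 0 hours, to describe which gene families stood away from the 0 hours level late after injury and which had returned to it. Each of these groups held 3 samples of total RNA, hybridised to 1 Affymetrix array each, and they are 6 of the 12 arrays of a time series whose other arrays covered 2 hours and 3 days. No genotype, strain, age, burn size or treatment is given by the labels for any group, and they leave unsaid whether the skin at 0 hours had itself been burnt. Whether each replicate is a different animal is not stated either, so every p-value here rests on spread among samples that may be technical. All genes named alone by a probe set were considered (5599), and the 3477 of them with a probe set above a signal of 475.55 on at least 3 of the 12 arrays were tested.

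Repair of injured skin is usually described in overlapping phases of inflammation, formation of new tissue and remodelling. Keratinocytes at the wound edge switch on alternative keratins and cornified envelope proteins while they migrate, and they rebuild a stratified barrier afterwards. Fibroblasts lay down a provisional matrix and then remodel it, macrophages clear debris, and hair follicles, which cycle between growth, regression and rest, share the excised tissue with fat and a sheet of skeletal muscle.

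The deposited signal is a linear intensity per probe set. Values under 225.375 were raised to that floor before the log2 transformation, and each change below is a log2 difference, 14 days minus 0 hours, with its standard error from 1 limma fit of all 12 arrays (n = 3 in each group). Genes with an adjusted p under 0.05 (Benjamini-Hochberg, over all 3477 genes) are described as called. A gene that was not called and whose 95% interval lay inside a log2 change of 1 in either direction is described as within 2-fold, and the remaining genes are described as undecided. Where an array of the lower group sat at the floor, the fold is only a lower bound. Genes above the filter on the 14 days arrays alone had to differ to be tested at all. There were 11 of these, and 10 of them rose. They include Mki67, Mmp11, Pmel, Ptch1, Rptn and Dsc1, for which no p is given. The counts of rises in their lists are also given without them, a recount chosen after the data were seen. A gene above the filter on fewer than 3 of the other arrays may also have passed only through the 14 days arrays. Such genes were not counted, so the p of a rise given below can still carry this selection. Over all genes 240 of 3477 rose, and 230 of 3466 without the 11. On the 0 hours arrays alone 5 genes were above the filter, and the 3 of them that fell are counted among the 112 falls of all genes.

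The arrays held the RNA of skin in both groups. The epidermal keratin Krt10 ranged from 21126 to 29999 at 14 days and from 21405 to 26101 at 0 hours, and the dermal collagen Col1a2 from 18074 to 29712 at 14 days and from 31068 to 36884 at 0 hours. The basal keratins Krt5 and Krt14 had no probe set that named them alone. Skeletal muscle was present too, since Acta1, the skeletal actin, ranged from 25979 to 32115 at 14 days and from 34255 to 54893 at 0 hours.

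**Figure D1:**
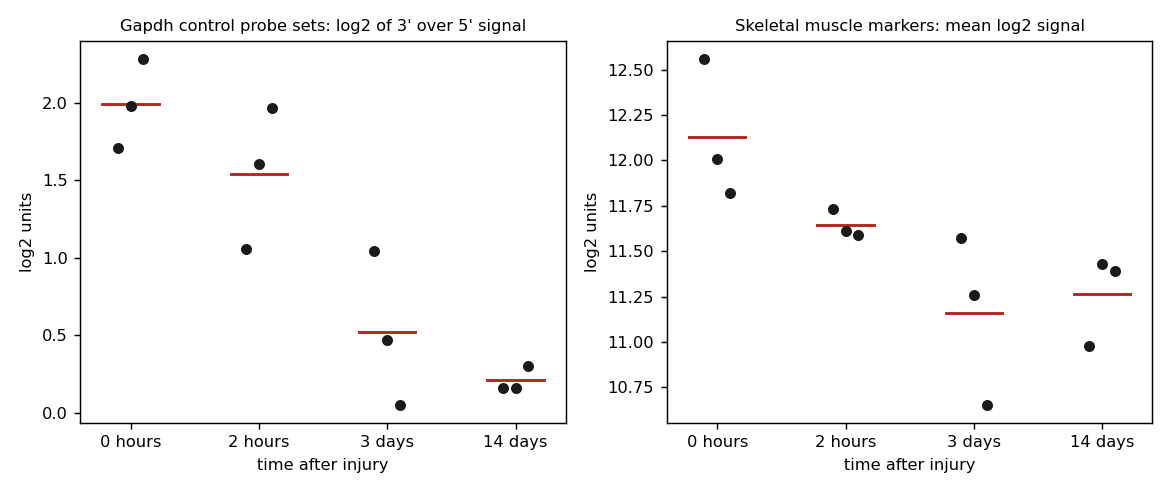
Points show, for each of the 12 arrays, the log2 ratio of the 3′ to the 5′ Gapdh control probe sets and the mean log2 signal of the skeletal muscle genes, by time, with bars at the group means. The Gapdh ratio lay between 0.163 and 0.301 on the 14 days arrays and between 1.71 and 2.28 on the 0 hours arrays, and the muscle mean was lower on each 14 days array than on each 0 hours array.

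Arrays of a group were not equally alike. Spearman correlations were 0.944 to 0.956 among the 14 days arrays and 0.868 to 0.922 among the 0 hours arrays, a range that lies inside the 0.835 to 0.926 between the groups. The 0 hours array 3 had the lowest mean correlation with the other 11 arrays of the series (0.845, against 0.881 to 0.916 for the others) and the lowest trimmed mean signal (818, against 885 to 909.6). Without it 356 genes were called, of which 193 rose and 163 fell.

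Beyond the single genes, 3 measures separated the groups. The log2 ratio of the 3′ to the 5′ Gapdh control probe sets, which is higher when RNA is shorter or its copying less complete, was 0.209 ± 0.0796 at 14 days and 1.99 ± 0.289 at 0 hours (SD, n = 3 each). The same ratio for actin ran the other way, at 0.355 ± 0.0662 at 14 days and 0.00964 ± 0.21 at 0 hours. The mean log2 signal of the muscle genes was 11.27 ± 0.248 at 14 days and 12.13 ± 0.388 at 0 hours. None of these 3 measures overlapped between the groups, so they cannot be told apart from the time after injury. The actin ratio was not used as a covariate. With the Gapdh ratio as a covariate 2 genes were called, and with the muscle mean 11, in fits whose intervals were wider (median half-width 1.13 and 0.697, against 0.488 without a covariate). With the Gapdh covariate the median changes were 1.53 for wound keratinocyte genes, 1.81 for hair follicle, 0.658 for cell cycle, −0.547 for muscle, −0.39 for macrophage and −0.989 for chemokine genes, where the last 2 lists had 0.45 and 0.00 without it. In whole tissue, fewer cells of a type and less RNA per cell cannot be told apart.

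At 14 days 352 genes (10.1% of those tested) were called, of which 240 (6.9%) rose and 112 (3.22%) fell, and 195 of the 352 changed at least 2-fold. The values of the groups did not overlap for 1014 genes (29.2%), including 348 of the called genes. Within 2-fold of the 0 hours level lay 2405 genes (69.2%), and 720 were undecided. Against the same 0 hours arrays, 5.64% of the genes were called at 2 hours and 13.3% at 3 days. The number of calls at 14 days depended on single arrays: it was 119 without 14 days replicate 1, 157 without 0 hours replicate 1, 211 without 14 days replicate 2 and 233 without 14 days replicate 3. Of 171 called genes that belong to a gene list or are named by rule, 59 were called in each of the 12 fits that left out 1 array, and these genes are given most room here. Where a value without an array is given, arrays 1, 2 and 3 of a time are its replicates 1, 2 and 3.

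**Figure D2:**
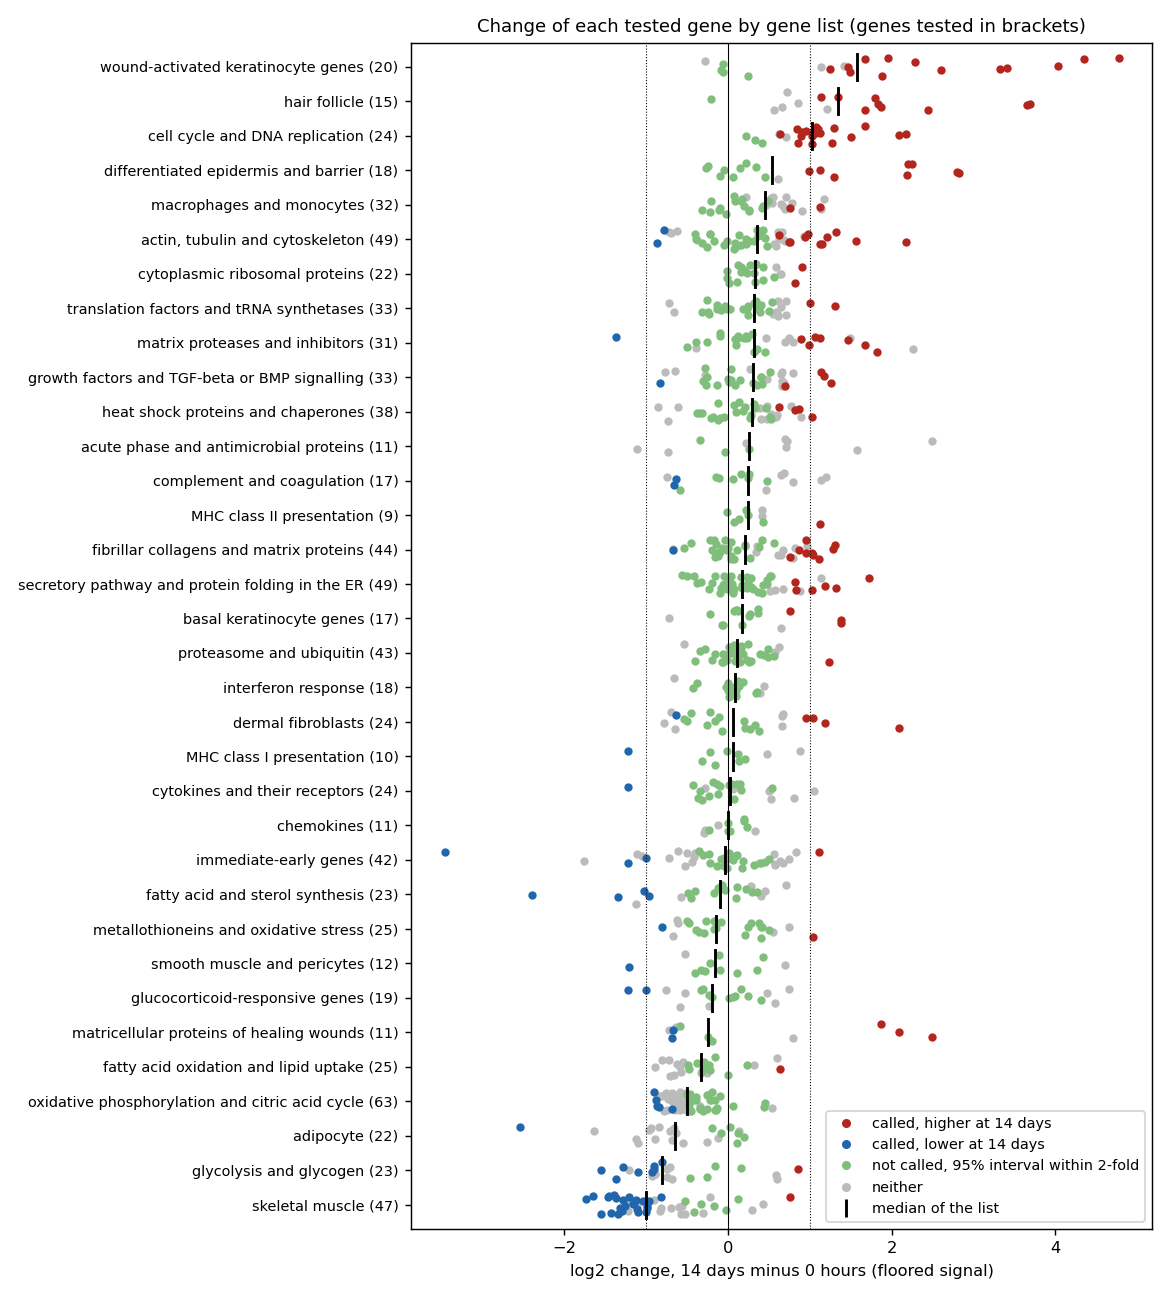
Each point is a tested gene, placed by its log2 change at 14 days against 0 hours and coloured by whether it rose, fell, lay within 2-fold or was undecided, for the gene lists with enough tested members, with a bar at each list's median and dotted lines at 2-fold. The medians of the wound keratinocyte, hair follicle and cell cycle lists lie at 1.58, 1.34 and 1.03, that of skeletal muscle at −0.996, and that of interferon-response genes near 0.

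Many of the largest rises belonged to genes that keratinocytes use in injured epidermis. Of 20 tested genes of the wound-activated keratinocyte list 13 rose, against 6.9% of all genes, with a median change of 1.58 over the 20, against 0.05 over all genes. None fell, 4 were within 2-fold and 3 were undecided. Over time 4, 14 and 13 of the 20 rose at 2 hours, 3 days and 14 days, comparisons that share the 0 hours arrays, where 3.97% and 8.89% of all genes rose at 2 hours and 3 days. The medians were 0.09, 2.06 and 1.58 at 2 hours, 3 days and 14 days. The signals of Krt16, the keratin that marks activated suprabasal keratinocytes, were 22710.4, 3424 and 5896 at 14 days, against 56.5, 171 and 442 at 0 hours. The groups did not overlap, and 14 days replicate 1 was the highest array. The change was 4.77 ± 0.54, adjusted p = 0.000132, with 2 of the 3 arrays at 0 hours at the floor, so that the rise was at least 27.3-fold. Krt6b, a keratin that pairs with Krt16, had 35163, 3817 and 8187 at 14 days, against 655, 401 and 958 at 0 hours (4.03 ± 0.56, adjusted p = 0.000672). Its probe set may also bind the near-identical Krt6a, whose own probe set, chosen after its values were seen, gave 2.28 ± 0.36, adjusted p = 0.00184.

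Other members of the same list mark junctions, proteases and the cornified envelope. Gjb2, the gap junction protein connexin 26, had signals of 7881, 3761 and 5335 at 14 days, against 258, 657 and 776 at 0 hours. Every array at 14 days was several times the highest array at 0 hours, and the change was 3.41 ± 0.35, adjusted p = 7.54e-05. Klk6, a secreted serine protease of the kallikrein family, had 3435, 1299 and 2574 at 14 days, against 54.7, 28.1 and 128 at 0 hours. All 3 arrays at 0 hours were under the floor, so Klk6 rose at least 10-fold (adjusted p = 1.49e-05). Sprr1a, a small proline-rich precursor of the cornified envelope, had 14551, 7464 and 12967 at 14 days, against 1059.8, 2355 and 2548 at 0 hours. It had risen already at 2 hours, with changes of 1.74, 2.60 and 2.60 at 2 hours, 3 days and 14 days (adjusted p = 0.000296 at 14 days). Sprr2b and Sprr2j-ps, a pseudogene by its name, of the same gene cluster, changed by 4.35 ± 0.68 and 2.47 ± 0.45 (adjusted p = 0.00175 and 0.00395). The Sprr2 genes are near-identical copies, and which of them gave these signals is uncertain. Within 2-fold at 14 days were S100a10, a calcium-binding partner of annexin, and Anxa1, an annexin that dampens inflammation. They had risen at 2 hours (0.85 and 0.80) and changed by −0.08 and 0.24 at 14 days (95% intervals −0.54 to 0.37 and −0.20 to 0.68), although another probe set of Anxa1 rose by 0.76 ± 0.22 (adjusted p = 0.0369). Of the 13 rises 12 were called whichever array was left out, and Sprr1b had an adjusted p of 0.0542 without 14 days replicate 1.

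The promoters of Sprr1a and Sprr1b are shown because these neighbouring genes rose together and because both hold matches to TGANTCA. This is a loose form of the binding sequence of AP-1, the Fos and Jun dimer, in which N, the central base, may be any base. The matches read TGAGTCA in Sprr1a and TGAATCA in Sprr1b. Each sequence is the 250 bases before the RefSeq start (build GRCm38.p6, minus strand), from chr3:92485882-92486131 for Sprr1a and from chr3:92438780-92439029 for Sprr1b, and capitals mark TGANTCA, which reads the same on both strands.
Sprr1a: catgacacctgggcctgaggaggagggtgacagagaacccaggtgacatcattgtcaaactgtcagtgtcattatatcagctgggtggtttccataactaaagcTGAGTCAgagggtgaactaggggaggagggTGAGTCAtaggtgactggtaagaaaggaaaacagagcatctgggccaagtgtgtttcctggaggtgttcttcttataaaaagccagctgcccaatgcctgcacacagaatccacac
Sprr1b: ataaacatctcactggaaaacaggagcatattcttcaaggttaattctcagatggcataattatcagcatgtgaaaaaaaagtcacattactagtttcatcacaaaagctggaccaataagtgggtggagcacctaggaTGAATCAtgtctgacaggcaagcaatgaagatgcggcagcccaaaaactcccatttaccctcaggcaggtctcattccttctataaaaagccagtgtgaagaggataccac
In windows of 250 bases before to 50 after the start, TGANTCA was found for 8 of the 13 tested list genes that have a RefSeq window, against 7.93% of all 27025 genes with one and 5.83% of the tested genes. Those 8 are Anxa2, Sprr1a, Sprr1b and 5 members of the Sprr2 family, which share much of their sequence. A match is a stretch of letters and says nothing of whether a factor was bound.

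**Figure D3:**
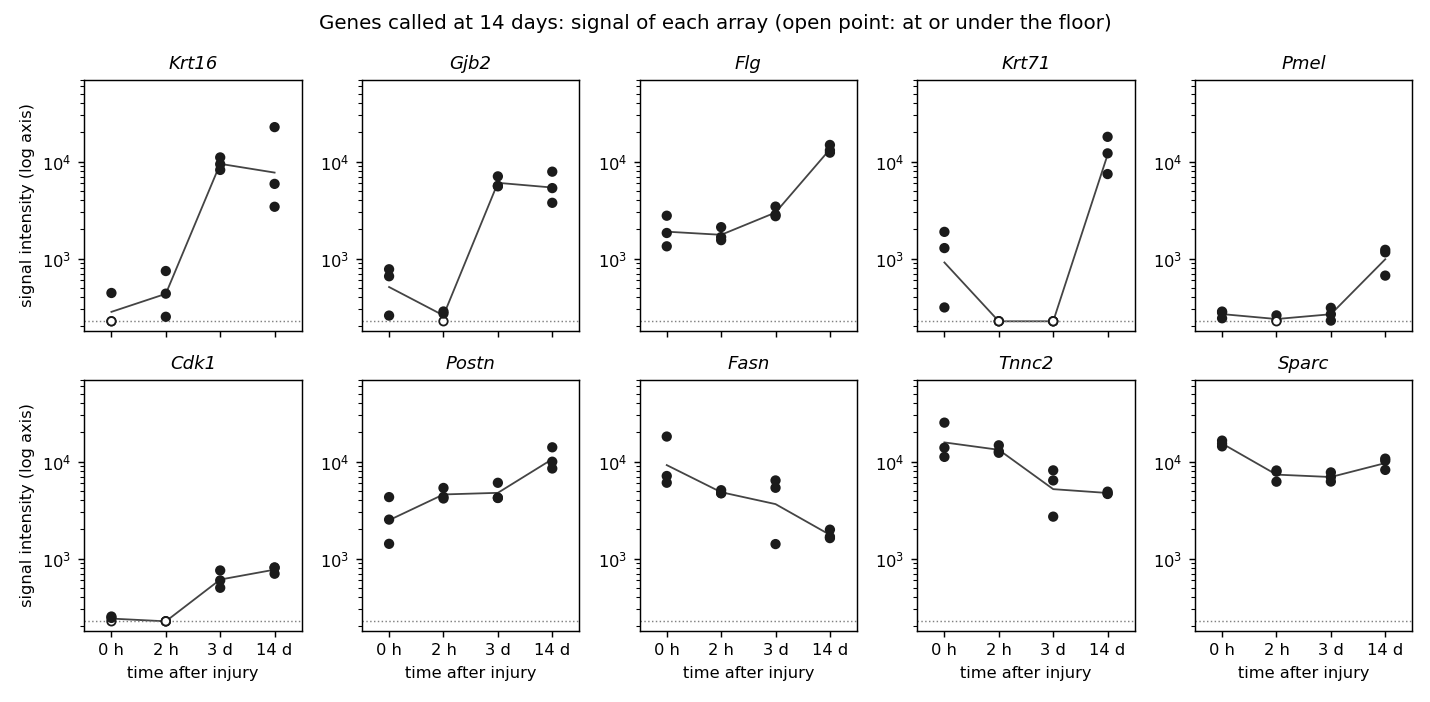
Signal on a log axis of each of the 3 arrays at 0 hours, 2 hours, 3 days and 14 days for 10 genes, with lines through the means of the log2 values and open points at or under the floor. At 14 days all 3 arrays of Krt16, Gjb2, Flg, Krt71, Pmel, Cdk1 and Postn lie above the 0 hours arrays, and all 3 of Fasn, Tnnc2 and Sparc lie below them.

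Several genes of the differentiated, barrier-forming epidermis were higher at 14 days than at 0 hours, and few genes of the list had been called earlier. Of 18 tested genes 8 rose, where 6.9% of all genes did, 9 were within 2-fold and 1 was undecided, with a median of 0.53. Rptn and Dsc1 are among the 8 and were above the filter on the 14 days arrays alone. Of the other 16 genes 6 rose. At 2 hours and 3 days 0 and 2 of the 18 had risen, against 3.97% and 8.89% of all genes. At 3 days 1 had fallen, against 4.4%. Filaggrin (Flg), whose breakdown products hold water in the stratum corneum, had signals of 13082, 12374 and 14871 at 14 days, against 1338, 2768 and 1836 at 0 hours. The lowest array at 14 days was several times the highest at 0 hours, and the change was 2.82 ± 0.24, adjusted p = 1.37e-05. Casp14, the protease that helps process filaggrin, had 2500, 2302 and 3042 at 14 days, against 283, 431 and 426 at 0 hours (2.80 ± 0.22, adjusted p = 8.87e-06). The suprabasal keratin Krt1 had 23168, 19189 and 28164 at 14 days, against 3653, 5217 and 6974 at 0 hours (2.19 ± 0.25, adjusted p = 0.000132). Its partner Krt10 changed by 0.06, with a 95% interval of −0.37 to 0.49, and was within 2-fold. Rptn, repetin, which lies beside filaggrin in the epidermal differentiation complex, did not reach the floor at 0 hours on any array and was at least 4.75-fold higher at 14 days. Casp14, Flg and Krt1 were called whichever array was left out, as were Calm4 and Fabp5.

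Among genes of the basal layer 3 of 17 tested rose, against 6.9% of all genes. A further 12 (70.6%) were within 2-fold, about the 69.2% of all genes, with a median of 0.17. Sfn, the keratinocyte 14-3-3 protein, changed by 1.38 ± 0.27, adjusted p = 0.00736, and Jup, plakoglobin of the desmosome, by 1.38 ± 0.28, adjusted p = 0.00893. P-cadherin, Cdh3, rose by less (0.76 ± 0.18, adjusted p = 0.0183), and its adjusted p was 0.0648 without 14 days array 1 and 0.065 without 14 days array 3. Col17a1, the hemidesmosomal collagen, had been higher at 2 hours (1.16) and was within 2-fold at 14 days (0.37, 95% interval −0.14 to 0.88).

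Hair follicle genes were high late after injury and had not been high early. Of 15 tested genes 9 rose at 14 days, where 6.9% of all genes did, 5 were undecided and 1 was within 2-fold, with a median change of 1.34. Without Ptch1 8 of 14 rose. At 2 hours and at 3 days none had risen, against 3.97% and 8.89% of all genes, and 2 had fallen, against 1.67% and 4.4%. The medians over time were −0.75, −0.59 and 1.34 at 2 hours, 3 days and 14 days. Krt71, a keratin of the inner root sheath, had signals of 7448, 12179 and 18029.5 at 14 days, against 313, 1886 and 1283 at 0 hours. Every array at 14 days was above every array at 0 hours, and 0 hours replicate 1 was the lowest. Its changes were −2.02, −2.02 and 3.69 at 2 hours, 3 days and 14 days (adjusted p = 0.000434 at 14 days). At 2 hours and 3 days its arrays were at the floor, so the sizes of those falls are only lower bounds. Krt25, also of the inner root sheath, had 3321, 5811 and 9371 at 14 days, against 143, 1249 and 324 at 0 hours (3.65 ± 0.48, adjusted p = 0.000445). Krt35, a keratin of the hair shaft, changed by 1.80 ± 0.33, adjusted p = 0.00501. Ptch1, the receptor and target of hedgehog signalling, changed by 1.13 ± 0.20. Krt71, Krt25 and Krt35 were called whichever array was left out. Krt27, chosen after its values were seen, changed by 2.44 ± 0.55, adjusted p = 0.0131, and this was 1.59 without 0 hours replicate 1 and not called without 14 days replicate 3 (adjusted p = 0.0564). Follicle keratins and keratin-associated proteins are families of close copies, so the share of each in these signals is uncertain.

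Of 3 tested pigment cell genes Pmel and Dct were called higher at 14 days, where 6.9% of all genes rose, and without Pmel 1 of 2 was. Pmel, the fibril protein of the melanosome, had signals of 667, 1160.2 and 1231 at 14 days, against 284, 242 and 278 at 0 hours. All arrays at 0 hours were close to the floor of 225.375 and all at 14 days were above them (1.88 ± 0.23). Pmel was above the filter on the 14 days arrays alone, so its difference is a description. Dct, a melanin-synthesis enzyme, had 882, 1548 and 1155 at 14 days, against 304, 529 and 384 at 0 hours (1.56 ± 0.24, adjusted p = 0.00155). Neither was called at 2 hours (−0.17 and −0.06) or at 3 days (0.00 and −0.01). The transcription factor Sox10, the other tested melanocyte gene and also a Schwann cell gene, was within 2-fold (0.23, 95% interval −0.19 to 0.65).

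Genes of the cell cycle and DNA replication were higher at 14 days. Of 24 tested genes 19 rose, where 6.9% of all genes did, 3 were within 2-fold and 2 were undecided, with a median of 1.03. Without Mki67 18 of 23 rose. At 2 hours and 3 days 1 and 9 of the 24 had risen, against 3.97% and 8.89% of all genes, with medians of −0.14 and 0.60. Cdk1, the kinase that drives entry into mitosis, had signals of 812, 802 and 698 at 14 days, against 94, 244 and 253 at 0 hours. The 3 arrays at 14 days lay within a narrow range and all above those at 0 hours (1.68 ± 0.18, adjusted p = 0.00011). Mki67, the proliferation antigen Ki-67, had 570.5, 722 and 696 at 14 days, against 205, 245 and 94.6 at 0 hours (1.51 ± 0.22). Mcm5, a subunit of the replicative helicase, had 1632, 1681 and 1364 at 14 days, against 413, 466 and 254 at 0 hours (2.09 ± 0.22, adjusted p = 9.84e-05). Stmn1, which destabilises microtubules, changed by 2.18 ± 0.35, adjusted p = 0.00184. The number of rises was 8 without 0 hours array 1, 8 without 14 days array 1 and 10 without 14 days array 2, and Cdk1, Kif22, Mcm3, Mcm5, Stmn1 and Tk1 were among those called in every such fit.

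The promoters of Cdk1 and Mki67 are shown because genes that peak at mitosis are known to share CCAAT boxes and the cell cycle homology region (CHR). Each is again the 250 bases before the RefSeq start (GRCm38.p6, minus strand), from chr10:69352913-69353162 for Cdk1 and from chr7:135716380-135716629 for Mki67. Capitals mark CCAAT and the CHR, which reads TTTGAA, in either orientation (ATTGG and, for the CHR, TTCAAA).
Cdk1: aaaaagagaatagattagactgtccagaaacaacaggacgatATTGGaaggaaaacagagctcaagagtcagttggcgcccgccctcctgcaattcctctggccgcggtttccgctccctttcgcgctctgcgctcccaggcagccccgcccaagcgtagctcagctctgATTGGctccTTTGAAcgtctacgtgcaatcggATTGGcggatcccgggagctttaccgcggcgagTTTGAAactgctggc
Mki67: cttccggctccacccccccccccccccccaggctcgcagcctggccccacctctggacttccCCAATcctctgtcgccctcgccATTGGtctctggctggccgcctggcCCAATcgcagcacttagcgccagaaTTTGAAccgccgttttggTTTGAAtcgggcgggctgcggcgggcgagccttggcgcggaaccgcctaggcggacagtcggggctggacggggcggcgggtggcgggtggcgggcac
Among 20 tested cell cycle genes with a window, 16 held CCAAT (80.0%), against 37.9% of all genes and 38.4% of the tested genes. TTTGAA was found in 8 of the 20, against 18.1% of all and 11.1% of the tested genes. TTTGGCGC and TTTCCCGC, forms of the E2F site, were found in 2 and 3 of them, against 0.537% and 1.11% of all genes and 0.813% and 2.01% of the tested genes. TGANTCA was found in 0, against 7.93% of all and 5.83% of the tested genes. Both strands were searched, and no overlap between different motifs was removed.

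Genes of the dermal matrix went in both directions. Of 11 tested matricellular genes of healing wounds 3 rose, 2 fell, 3 were within 2-fold and 3 were undecided, with a median of −0.24. The calls were 45.5% of the list, against 10.1% of all genes. Postn, periostin, a matricellular protein of granulation tissue, had signals of 14069.6, 9989 and 8503 at 14 days, against 1420.3, 4310.5 and 2526 at 0 hours. Its groups did not overlap (2.09 ± 0.33, adjusted p = 0.00175). Tnc, tenascin C, did not reach the floor at 0 hours on any array and rose at least 5.65-fold (adjusted p = 0.00511), after a change of 3.38 at 3 days. Thbs2, thrombospondin 2, changed by 1.87 ± 0.28, adjusted p = 0.00155. These 3 rises were called whichever array was left out. The falls were Sparc and Smoc2, and they numbered 0 without 0 hours array 1, 1 without 0 hours array 2, 0 without 0 hours array 3, 1 without 2 hours array 3, 1 without 3 days array 2, 0 without 14 days array 1, 0 without 14 days array 2 and 1 without 14 days array 3.

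Of 44 tested genes of the list of collagens and other matrix proteins 9 rose, 1 fell, 25 were within 2-fold and 9 were undecided, with a median of 0.21. The fall was Sparc, which is also counted among the matricellular falls. The calls were 22.7% of the list, against 10.1% of all genes. Col6a3, a chain of the microfibrillar collagen VI, changed by 1.31 ± 0.22, adjusted p = 0.0026, and of the 9 rises in this list it alone was called whichever array was left out. The number of rises was 3 without 0 hours array 1, 1 without 14 days array 1 and 5 without 14 days array 2.

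Neither chain of collagen I was called higher. Col1a2 had 29712, 22968 and 18074 at 14 days, against 36884, 31068 and 32919 at 0 hours, which do not overlap, and its change of −0.54 ± 0.19 was not called (adjusted p = 0.0886) and lay within 2-fold (95% interval −0.95 to −0.12). It had been lower at 2 hours and 3 days (−1.61 and −1.27). For Col1a1 the answer depended on the probe set. The brighter set had 40385, 37829.5 and 33035 at 14 days, against 57181, 46906 and 47843 at 0 hours and was within 2-fold (−0.45, 95% interval −0.84 to −0.06), whereas another had 9887, 11080 and 8489.6 at 14 days, against 40601, 35459.8 and 43053 at 0 hours, and fell by 2.02 ± 0.20 (adjusted p = 4.7e-05). Col3a1, the collagen of early repair, changed by −0.22 (95% interval −0.71 to 0.27). Sparc, a collagen-binding matricellular protein, had 10749, 10218 and 8226 at 14 days, against 15353, 14389.6 and 16493 at 0 hours and fell (−0.67 ± 0.19, adjusted p = 0.0328), but its adjusted p was 0.0792 without 0 hours array 1, 0.064 without 0 hours array 3, 0.0665 without 14 days array 1, 0.0747 without 14 days array 2 and 0.115 without 14 days array 3.

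Proteases that remodel matrix and their inhibitors went in both directions. Of 31 tested 7 rose, 1 fell, 16 were within 2-fold and 7 were undecided, and 13 had risen at 3 days, against 8.89% of all genes. The calls at 14 days were 25.8% of the list, against 10.1% of all genes. Without Mmp11 6 of 30 rose. Mmp11, stromelysin 3, had 868, 747 and 578 at 14 days, against 231, 235 and 328 at 0 hours (1.47 ± 0.20). Mmp9, gelatinase B, had 1354, 594 and 514 at 14 days, against 253, 159.7 and 192 at 0 hours (1.67 ± 0.33, adjusted p = 0.00804), and Timp2, a metalloprotease inhibitor, changed by 1.82 ± 0.29, adjusted p = 0.00184. Mmp3, stromelysin 1, was the list's fall, with 886, 626 and 719 at 14 days, against 1406, 1983 and 2426 at 0 hours (−1.36 ± 0.29, adjusted p = 0.00957). Mmp9, Timp2 and Mmp3 were called whichever array was left out, and the number of rises was 3 without 0 hours array 1, 3 without 14 days array 1, 4 without 14 days array 2 and 4 without 14 days array 3. The lysosomal protease Ctsl and the serpin Serpina3n had risen at 3 days (1.28 and 1.10) and were within 2-fold at 14 days (0.45 and −0.26). Among growth factors and their regulators 4 of 33 rose (3 of 32 without Ptch1) and 1 fell, with 17 within 2-fold. The calls were 15.2% of that list, against 10.1% of all genes. Besides Ptch1, the insulin-like growth factor binding proteins Igfbp2 and Igfbp6 changed by 1.18 ± 0.31 and −0.83 ± 0.21 (adjusted p = 0.0256 and 0.0245). Those calls were lost for Igfbp2 (adjusted p = 0.0967 without 0 hours array 1, 0.0694 without 14 days array 1, 0.0833 without 14 days array 2 and 0.0591 without 14 days array 3) and for Igfbp6 (0.0644 without 0 hours array 1 and 0.112 without 14 days array 1). The rises in this list numbered 2 without 0 hours array 1, 1 without 14 days array 1, 1 without 14 days array 2 and 2 without 14 days array 3.

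Among structural genes of the cytoskeleton 11 of 49 rose and 2 fell, with 24 within 2-fold and a median of 0.36. The calls were 26.5% of the list, against 10.1% of all genes, and Stmn1, given above, is among the rises. Tubb5, a tubulin, changed by 1.12 ± 0.19, adjusted p = 0.00245, and Myh9, non-muscle myosin, by 1.57 ± 0.31, adjusted p = 0.00762, although another probe set of Myh9 was within 2-fold (0.40). Both were called whichever array was left out, while the rises numbered 5 without 0 hours array 1, 4 without 14 days array 1, 6 without 14 days array 2 and 7 without 14 days array 3, and the falls 0 without 0 hours array 1, 1 without 0 hours array 3, 0 without 14 days array 1 and 1 without 14 days array 3. Ncam1, a neural adhesion molecule and the 1 rise among 5 Schwann cell and nerve genes (20%, against 6.9% of all genes), changed by 1.32 ± 0.21, adjusted p = 0.00184.

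Enzymes of lipid synthesis were among the genes that fell. In fatty acid and sterol synthesis 4 of 23 fell, against 3.22% of all genes (4.4% at 3 days and 1.67% at 2 hours), 13 were within 2-fold and none rose. Fasn, fatty acid synthase, had signals of 1989, 1627 and 1681 at 14 days, against 18164, 7115 and 6062 at 0 hours. All arrays at 14 days were below all at 0 hours, among which 0 hours replicate 1 was the highest (−2.39 ± 0.47, adjusted p = 0.00765). Acly, which supplies cytosolic acetyl-CoA, changed by −1.02 ± 0.21, adjusted p = 0.00933. Both were called whichever array was left out, whereas the falls of the list numbered 2 without 14 days array 1. Scd2, a desaturase, had been lower at 2 hours (−1.37) and was within 2-fold at 14 days (−0.09, 95% interval −0.50 to 0.32). Thrsp, which promotes lipid synthesis in fat, had 715, 638 and 1034 at 14 days, against 12167, 3137 and 2395 at 0 hours (−2.53 ± 0.60, adjusted p = 0.0174), and its adjusted p was 0.068 without 0 hours array 1, 0.0631 without 14 days array 1 and 0.059 without 14 days array 2. It was the only call among 22 adipocyte genes (4.55%, against 10.1% of all genes), of which 15 were undecided. The mean log2 signal of that list ranged from 10.07 to 10.74 at 14 days and from 10.58 to 11.80 at 0 hours.

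Of 47 tested skeletal muscle genes 25 fell, where 3.22% of all genes did, and 1 rose, with 6 within 2-fold, 15 undecided and a median of −0.996. At 2 hours and 3 days 3 and 26 had fallen, against 1.67% and 4.4% of all genes, with medians of −0.46 and −1.09. Tnnc2, fast troponin C, had 4714, 4642 and 4906 at 14 days, against 25275, 13929 and 11206 at 0 hours (−1.73 ± 0.35, adjusted p = 0.00847). Phkg1, the muscle phosphorylase kinase subunit, and Sypl2, a protein of the triad junction, changed by −1.55 ± 0.26 and −1.11 ± 0.19 (adjusted p = 0.00244 and 0.00318). These 3 were the falls called whichever array was left out. The falls numbered 4 without 0 hours array 1, 3 without 14 days array 1, 15 without 14 days array 2 and 16 without 14 days array 3, so the count rests on those arrays. How much muscle each sample held was not tested apart from these genes. The exception that rose was Tpm1, a tropomyosin also made outside muscle (0.76 ± 0.21, adjusted p = 0.0321), chosen after its values were seen.

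Most called genes of energy metabolism fell as well, but these lists share members with the muscle list. Phkg1, given above as a muscle fall, is also the only glycolysis call that held whichever array was left out. Of 23 glycolysis and glycogen genes 8 fell, where 3.22% of all genes did, 1 rose and 10 were undecided, with a median of −0.81. Lactate dehydrogenase A (Ldha) and phosphoglycerate kinase (Pgk1) changed by −0.92 ± 0.21 and −0.90 ± 0.21 (adjusted p = 0.0147 and 0.0154). Those calls were lost for Ldha (adjusted p = 0.0628 without 0 hours array 1, 0.0615 without 14 days array 1 and 0.0555 without 14 days array 2) and for Pgk1 (0.057 without 0 hours array 1, 0.075 without 14 days array 1 and 0.0592 without 14 days array 2). The falls numbered 1 without 0 hours array 1, 1 without 14 days array 1 and 4 without 14 days array 2. In oxidative phosphorylation and the citric acid cycle 5 of 63 fell (7.94%, against 3.22% of all genes), 26 were within 2-fold and 32 were undecided, with a median of −0.50. The complex III subunit Uqcr10 changed by −0.86 ± 0.22, adjusted p = 0.0225, and its adjusted p was 0.0919 without 0 hours array 1, 0.09 without 14 days array 1 and 0.0718 without 14 days array 2. The falls numbered 0 without 0 hours array 1, 3 without 0 hours array 2, 29 without 0 hours array 3, 0 without 14 days array 1, 0 without 14 days array 2 and 2 without 14 days array 3. With the muscle mean as a covariate the medians were −0.0475 for muscle, −0.109 for glycolysis and 0.169 for oxidative phosphorylation. That covariate is the mean of the muscle list itself, so the small muscle median follows by construction. The glycolysis list shares Phkg1 with the muscle list, so its median is not independent of the covariate either. How far muscle content goes with the falls was not tested.

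**Figure D4:**
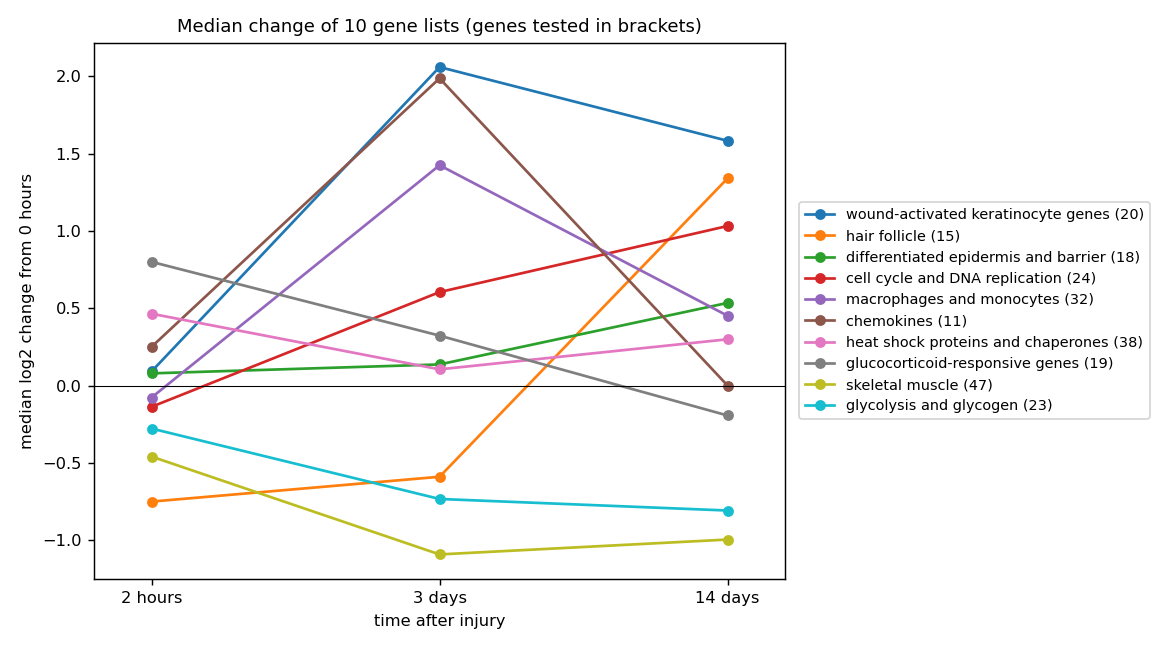
Median log2 change of the tested genes of 10 lists at 2 hours, 3 days and 14 days, each against the same 0 hours arrays. Heat shock and glucocorticoid-responsive genes peak at 2 hours, chemokine and macrophage genes at 3 days, and hair follicle and cell cycle genes are highest at 14 days.

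Of 38 heat shock and chaperone genes 11 had risen at 2 hours and 1 at 3 days, against 3.97% and 8.89% of all genes. At 14 days 4 rose, where 6.9% of all genes did, and 13 were undecided. Within 2-fold were 21, a share of 55.3%, below the 69.2% of all genes. Hspa1a, the inducible Hsp70, had 34793, 48762 and 26414 at 2 hours, and 2007, 2264 and 2645 at 14 days, against 1664, 3073 and 1787 at 0 hours. The groups at 14 days and 0 hours overlapped, and the change at 14 days was 0.13 ± 0.26 (95% interval −0.42 to 0.69), against 4.09 at 2 hours. Its neighbour Hspa1b is near-identical, so the share of each is uncertain. Hspd1 and Dnaja1, a mitochondrial chaperonin and an Hsp40 cochaperone, changed by 1.38 and 1.38 at 2 hours and by −0.09 and 0.07 at 14 days, where both were within 2-fold. Hsp90aa1, the inducible Hsp90, had changed by 2.90 at 2 hours and was still higher at 14 days, with 2433, 3509 and 3159.8 at 14 days, against 1606, 1786 and 1118 at 0 hours (1.02 ± 0.29, adjusted p = 0.0368). That call was lost in 5 fits, with an adjusted p of 0.072 without 0 hours array 1, 0.105 without 0 hours array 3, 0.0607 without 14 days array 1, 0.12 without 14 days array 2 and 0.09 without 14 days array 3. The rises of the list numbered 0 without 0 hours array 1, 9 without 0 hours array 2, 2 without 0 hours array 3, 0 without 14 days array 1, 0 without 14 days array 2 and 2 without 14 days array 3.

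Of 25 metal-binding and oxidative stress genes 1 rose, 1 fell and 18 were within 2-fold (72%, near the 69.2% of all genes). Metallothionein 2 (Mt2) had 11305, 11319.6 and 11603 at 14 days, against 8961, 8177 and 8753 at 0 hours. These do not overlap, yet the difference was small, at 0.40 ± 0.20 (95% interval −0.02 to 0.83, adjusted p = 0.207), after changes of 2.35 and 0.98 at 2 hours and 3 days. Gsto1, a glutathione transferase, was the rise (1.05 ± 0.21, adjusted p = 0.00817) and was called whichever array was left out. Sod1, the cytosolic superoxide dismutase, was the fall (−0.81 ± 0.21, adjusted p = 0.0278), with an adjusted p of 0.111 without 0 hours array 1, 0.09 without 14 days array 1, 0.0883 without 14 days array 2 and 0.0535 without 14 days array 3.

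Of 19 glucocorticoid-responsive genes 9 had risen at 2 hours, against 3.97% of all genes. None was called higher at 14 days, where 2 fell (Dusp1 and Cebpd), 10 were within 2-fold and 7 were undecided. The share within 2-fold was 52.6%, below the 69.2% of all genes. The calls at 14 days were 10.5% of the list, near the 10.1% of all genes. The falls numbered 0 without 0 hours array 1, 1 without 3 days array 2, 0 without 14 days array 1 and 0 without 14 days array 2. Sgk1, a kinase induced by glucocorticoids, had 1295, 829.6 and 1171 at 14 days, against 1220.5, 1444 and 620.3 at 0 hours, with changes of 1.25, 0.08 and 0.07 at 2 hours, 3 days and 14 days (95% interval −0.51 to 0.65 at 14 days). Immediate-early genes likewise had 12 rises of 42 at 2 hours, against 3.97% of all genes. At 14 days they had 1 rise, 3 falls, 20 within 2-fold (47.6%, below the 69.2% of all genes) and 18 undecided. At 14 days 9.52% of them were called, near the 10.1% of all genes. Klf6, a zinc-finger factor, changed by 1.03 at 2 hours and −0.05 at 14 days (95% interval −0.58 to 0.48). Of the 3 falls in this list, only Fos was called whichever array was left out. Cebpd, also a fall of the glucocorticoid list, is another of them, and its call was lost in 4 of the 12 such fits. Fos, the AP-1 subunit, had the largest fall of all tested genes, with 335, 323 and 386 at 14 days, against 8668, 1585 and 3998 at 0 hours. The 3 arrays at 0 hours spread widely and each was above every array at 14 days (−3.45 ± 0.58, adjusted p = 0.0026). It was not called at 2 hours (−0.24) and was already lower at 3 days (−2.04). Dusp6, a phosphatase that limits ERK, rose (1.11 ± 0.24, adjusted p = 0.00984), and both genes were called whichever array was left out. The falls of this list numbered 1 without 0 hours array 1, 6 without 0 hours array 2, 1 without 14 days array 1 and 1 without 14 days array 2.

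**Figure D5:**
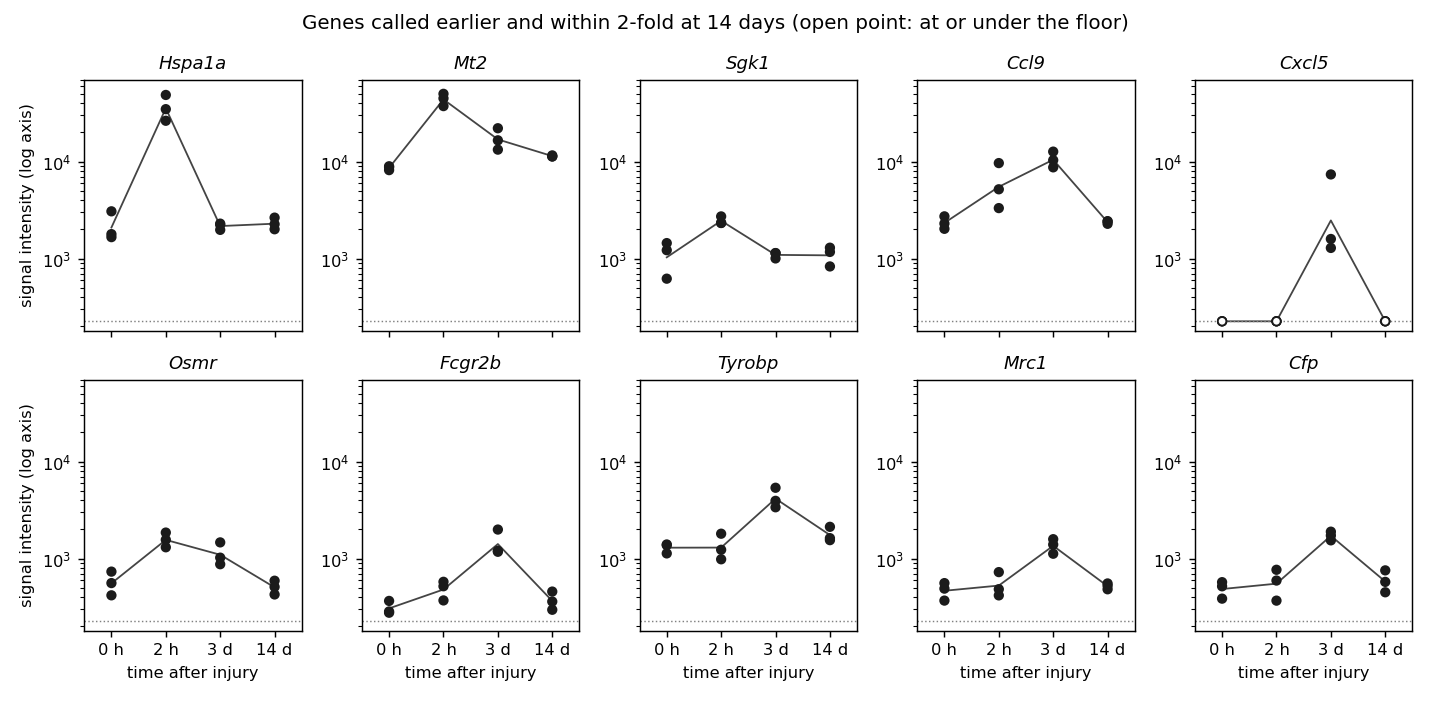
Signal on a log axis of each of the 3 arrays at 0 hours, 2 hours, 3 days and 14 days for 10 genes that were called at 2 hours or 3 days and lie within 2-fold at 14 days, drawn as in the plot of genes that had not returned. Hspa1a, Mt2 and Sgk1 peak at 2 hours and Cxcl5, Ccl9, Fcgr2b, Tyrobp, Mrc1 and Cfp at 3 days, and their 14 days points lie near the 0 hours points.

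Of 11 tested chemokine genes 3 and 8 had risen at 2 hours and 3 days, against 3.97% and 8.89% of all genes. None was called at 14 days, where 10.1% of all genes were. Within 2-fold were 7, a share of 63.6% against 69.2% of all genes, and 4 were undecided. Of the 7, Cxcl5 and Cxcl2 were under the floor on all 6 arrays, where the change is 0 by construction, and of the other 9 genes 5 were within 2-fold, with a median of 0.03 (also a recount chosen after the data were seen). That list's median over all 11 was −0.456 with the muscle covariate and −0.989 with the Gapdh covariate. At 14 days 0 were called by limma in each of the 12 fits that left out 1 array. Cxcl5, a neutrophil attractant, had 1593, 1288 and 7381 at 3 days, and 180.3, 94.1 and 17.5 at 14 days, against 15.2, 131 and 184 at 0 hours. All 6 arrays at 14 days and 0 hours were under the floor, so only an upper bound holds there. Ccl9, a monocyte chemokine, was measurable throughout, with 2415, 2432 and 2284 at 14 days, against 2028, 2299 and 2727 at 0 hours. The groups overlapped, and the changes were 1.24, 2.17 and 0.03 at 2 hours, 3 days and 14 days (95% interval −0.61 to 0.66 at 14 days). Cxcl12, a stromal chemokine, changed by 1.59 at 3 days and 0.20 at 14 days (95% interval −0.31 to 0.71).

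Cytokines and their receptors had 16 of 24 within 2-fold (66.7%, near the 69.2% of all genes), 1 fall and no rise. At 3 days 8 had risen, against 8.89% of all genes. The 1 call at 14 days is 4.17% of the list, against 10.1% of all genes. Osmr, the oncostatin M receptor, changed by 1.49, 0.98 and −0.14 at 2 hours, 3 days and 14 days (95% interval −0.67 to 0.40 at 14 days). Il1r2, the decoy receptor of interleukin 1, was the fall, with 812, 912 and 1081 at 14 days, against 2247, 1946 and 2308 at 0 hours (−1.22 ± 0.20, adjusted p = 0.00235), although another of its probe sets was within 2-fold (−0.49). Interferon-response genes had 15 of 18 within 2-fold (83.3%, against 69.2% of all genes) and none called by limma, against 10.1% of all genes. Isg15, a ubiquitin-like protein induced by interferon, changed by 1.19 at 3 days and 0.19 at 14 days (95% interval −0.49 to 0.86). Outside this list, Ifitm6 and Ifi27l2a, of interferon-induced families by their names, were called lower at 14 days. Ifitm6 is described under other observations, and the call of Ifi27l2a was lost in 9 of the 12 fits that left out 1 array.

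Nearly all macrophage genes had been higher at 3 days, when 30 of 32 rose, against 8.89% of all genes, with a median of 1.43. At 14 days 2 rose, 16 were within 2-fold and 14 were undecided, with a median of 0.45. The share that rose at 14 days, 6.25%, is near the 6.9% of all genes, and the share within 2-fold, 50%, is below their 69.2%. Fcgr2b, the inhibitory Fc receptor, had 1203, 1176 and 1994 at 3 days, and 457, 297 and 361 at 14 days, against 285, 276 and 366 at 0 hours. The groups at 14 days and 0 hours overlapped (0.25, 95% interval −0.29 to 0.79). Mrc1, the mannose receptor, changed by 1.54 at 3 days and 0.16 at 14 days (95% interval −0.34 to 0.66). The signalling adaptor Tyrobp had 2127, 1551 and 1626 at 14 days, against 1131, 1399 and 1375 at 0 hours, which do not overlap, and changed by 0.43 ± 0.24 (adjusted p = 0.269, within 2-fold). Of the genes set to check for macrophages, Cd68 ranged from 1023 to 1104 at 14 days and from 565 to 826 at 0 hours. Lyz2 ranged from 3723 to 5194 at 14 days and from 2252 to 3521 at 0 hours. Both were higher on every 14 days array. The groups overlapped for Csf1r (1609 to 2642 against 1997 to 2407) and, around the floor, for Adgre1 (163 to 288.5 against 220 to 297). Ctss, a cathepsin of antigen processing, and Lgals3, galectin 3, were the rises (1.13 ± 0.30, adjusted p = 0.0286, and 0.76 ± 0.20, adjusted p = 0.0284). The call of Ctss was lost in 5 fits (adjusted p = 0.116 without 0 hours array 1, 0.074 without 0 hours array 3, 0.0989 without 14 days array 1, 0.0804 without 14 days array 2 and 0.0564 without 14 days array 3) and that of Lgals3 in 3 (0.111 without 0 hours array 1, 0.075 without 14 days array 1 and 0.106 without 14 days array 3). The mean log2 signal of the macrophage list was 10.03 ± 0.0621 at 14 days and 9.62 ± 0.110 at 0 hours (SD, n = 3 each). The lowest 14 days array had 9.97 and the highest 0 hours array 9.68, so the groups did not overlap in this mean. The rises numbered 0 without 0 hours array 1, 4 without 0 hours array 2, 1 without 0 hours array 3, 7 without 2 hours array 1, 0 without 14 days array 1 and 0 without 14 days array 3.

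Complement genes had 2 falls, no rise and 8 of 17 within 2-fold. The share within 2-fold was 47.1%, against 69.2% of all genes, and the share called 11.8%, against 10.1%. The falls numbered 1 without 0 hours array 1, 1 without 3 days array 2, 0 without 14 days array 1, 0 without 14 days array 2 and 1 without 14 days array 3. Properdin (Cfp), which stabilises the alternative pathway, changed by 1.82 at 3 days and 0.26 at 14 days (95% interval −0.32 to 0.83). Of the genes that present antigen, 6 of 9 of class II and 7 of 10 of class I were within 2-fold (66.7% and 70%, near the 69.2% of all genes). In class II Ctss, given above, rose, and in class I H2-Q10, a class Ib gene, fell (−1.22 ± 0.36, adjusted p = 0.0457), a call that was lost in 8 of the 12 fits that left out 1 array. Mast cell genes were all 4 within 2-fold, 1 of them with all 6 arrays at the floor, and of 7 endothelial genes 6 were (85.7%). The share over all genes was 69.2%, and both lists are small.

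Most acute phase and antimicrobial genes were undecided. None of 11 acute phase genes was called at 14 days, 3 were within 2-fold (27.3%, against 69.2% of all genes) and 8 were undecided. At 3 days 6 had risen, against 8.89% of all genes. S100a8 and S100a9, the calprotectin subunits, are given after their values were seen. S100a8 had 6347, 685 and 1047 at 14 days, against 147, 312 and 367 at 0 hours. The groups do not overlap, but 14 days replicate 1 was several times the other 2 (2.49 ± 0.76, adjusted p = 0.0525). S100a9 had 2115, 369 and 385 at 14 days, against 88.2, 117 and 59.8 at 0 hours, with all arrays at 0 hours under the floor (adjusted p = 0.137). The same array was the highest at 14 days for Krt16 and Krt6b. Of 4 tested neutrophil genes S100a8 and S100a9 were the 2 undecided, Mmp9 rose and Il1r2 fell, and both of those calls held whichever array was left out. The calls were 50% of that list, against 10.1% of all genes. They are not separate from calls counted above. Mmp9 is also a rise of the wound keratinocyte and protease lists, and Il1r2 is the cytokine fall.

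Lists of basic cell upkeep differed in how many of their genes lay within 2-fold. Of 43 proteasome and ubiquitin genes 39 were within 2-fold and 1 rose, Psme3, a proteasome activator (1.23 ± 0.25, adjusted p = 0.00862). Of 49 secretory pathway genes 38 were within 2-fold and 6 rose, among them Pdia6, a disulphide isomerase of the endoplasmic reticulum, which did not reach the floor at 0 hours on any array and rose at least 3.3-fold (adjusted p = 0.00219). Those rises numbered 2 without 0 hours array 1, 2 without 14 days array 1 and 3 without 14 days array 2. Ribosomal proteins had 17 of 22 within 2-fold and 2 rises, which numbered 0 without 0 hours array 1, 6 without 0 hours array 2, 1 without 0 hours array 3, 1 without 2 hours array 3, 0 without 14 days array 1, 0 without 14 days array 2 and 0 without 14 days array 3. Translation factors had 21 of 33 within 2-fold, 10 undecided and 2 rises, 1 of them Pabpc1, the poly(A)-binding protein (1.31 ± 0.21, adjusted p = 0.00198). The rises among translation factors numbered 1 without 0 hours array 1, 6 without 0 hours array 2, 1 without 0 hours array 3, 1 without 3 days array 2, 1 without 14 days array 1, 1 without 14 days array 2 and 1 without 14 days array 3. The shares within 2-fold stood at 90.7% for the proteasome list, 77.6% for the secretory list, 77.3% for ribosomal proteins and 63.6% for translation factors, against 69.2% of all genes. In the same order 2.33%, 12.2%, 9.09% and 6.06% were called, against 10.1% of all genes.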

How the data were processed

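Gene expression in mouse skin after thermal injury was measured on 12 Affymetrix arrays, 3 per time point (0 hours, 2 hours, 3 days, 14 days), grouped and numbered by sample title. The authors deposited a linear intensity for each probe set on each array, with no detection call. Their software, their scaling and how probe sets were selected: not given in the sources used here. Of 7275 probe sets 27 are controls, 6551 name exactly 1 gene through the platform's annotation table, 251 name several and 446 none.

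The 2% trimmed means of the arrays lay within 8.56% of their mean, under the limit of 10%, so no further scaling was applied. A floor was set at the pooled 25th percentile (225.375) ahead of the log2 step. The filter kept a probe set that exceeded 475.55, the median of all values, on 3 or more arrays, and the brightest represented each gene. A model of all 12 arrays, with a mean for each time, was fitted in limma 3.58.1 under R 4.3.3 (8 residual and 6.63 prior degrees of freedom), and 14 days was contrasted with 0 hours with Benjamini-Hochberg adjustment over all genes. With 3 arrays a group, no exact test could reach a p below 0.1. Figures were drawn with matplotlib 3.10.9. The fit was tested on simulated data with known changes.

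The comparison, the 43 gene lists and the alternatives were chosen with earlier results of these data known, and no list was tested as a set. The rule named 12 genes in each direction by size of change, among called genes without overlap of the groups, and of each list up to 4 members called at 14 days and up to 4 called earlier and within 2-fold at 14 days. Further genes named only as range ends or as calls that held in every fit, and those stated in the text, were chosen after their values were seen. Promoter windows came from RefSeq (GRCm38.p6), matched by symbol for 2830 tested genes. Same-numbered replicates were checked for pairing and did not deviate together, so the fit has no replicate block. Genes that the floor, the filter or the annotation left out were not analysed here.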

Additional observations from a re-analysis of the deposited data

Results flagged for a closer look

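Outside the genes of the report, 401 probe sets that passed the same filter name no gene or several genes. At 14 days against 0 hours 37 of them were called by limma at an adjusted p under 0.05, of which 22 rose and 15 fell. They lie outside the genes that the comparison uses, and what they measure was not resolved here.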

How the results depend on the processing

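The number of genes called at 14 days was 352. It was 153 with only the 14 days and 0 hours arrays in the fit, 11 when the muscle mean was a covariate (394 unadjusted) and 2 when the Gapdh ratio was (185 at an unadjusted p under 0.05). Leaving out 1 array at a time gave 119 (without 14 days replicate 1) to 486 (without 0 hours replicate 2). The other settings gave 241 (no filter) to 392 (the probe set with the highest variance), and 438 with every probe set counted. Genes within 2-fold numbered 2405, with 4082 without the filter, which tests more genes, 1221 with the filter at the 75th percentile, which tests fewer, 1664 with the muscle mean and 119 with the Gapdh ratio, and 2074 to 2407 when 1 array was left out. Except where stated, the cause was not tested. Rises made up 68.2% of the calls, against 58.7% after quantile normalization and 60.7% after scaling to the same median. Single genes reversed in 3 cases: Hsp90aa1 changed by −0.17 with the Gapdh ratio, Igfbp4 by −0.38 with the probe set of highest variance, and Pcx by 0.0156 with the muscle mean. Of the 95 named genes that were called, Fos alone was called with the Gapdh covariate and 8 genes with the muscle covariate: Casp14, Cdk1, Flg, Gjb2, Klk6, Krt1, Mcm5 and Mmp3, leaving aside Pmel, which was above the filter on the 14 days arrays alone. The replicate numbers did not pair the arrays, since deviations from the group means of same-numbered arrays correlated at −0.134, −0.126 and −0.167, and a replicate block gave 315 called genes and 2382 within 2-fold. Signal near the floor of 225.375 limits falls to undetected levels.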

Other observations

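Among the largest falls that no list described above holds, Ifitm6, of the interferon-induced transmembrane family, had signals of 390.1, 465 and 717 at 14 days, against 1638, 1404 and 1372 at 0 hours. Every array at 14 days was below every array at 0 hours (−1.53 ± 0.26, adjusted p = 0.00273), and the call held whichever array was left out. It had not been called at 2 hours (0.54) or 3 days (−0.48). Cdo1, an enzyme of cysteine breakdown, changed by −1.71 ± 0.47, adjusted p = 0.0319, with an adjusted p of 0.13 without 0 hours array 1, 0.117 without 14 days array 1, 0.0755 without 14 days array 2 and 0.0569 without 14 days array 3. Sar1b, a small GTPase of vesicle coats, changed by −1.52 ± 0.32, adjusted p = 0.00933, with an adjusted p of 0.0528 without 14 days array 1.

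Of 24 fibroblast genes 4 rose, among them Postn, given above, 1 fell and 13 were within 2-fold. The rises numbered 2 without 0 hours array 1, 1 without 14 days array 1 and 2 without 14 days array 2. The calls were 20.8% of the list, against 10.1% of all genes. Of 12 smooth muscle genes 9 were within 2-fold (75%, near the 69.2% of all genes). The 1 call was 8.33% of the list, near the 10.1% of all genes. It was Myh11, smooth muscle myosin, which fell (−1.21 ± 0.32, adjusted p = 0.026). Its adjusted p was 0.0515 without 0 hours array 1, 0.0685 without 0 hours array 2, 0.106 without 14 days array 1 and 0.0992 without 14 days array 2. Of 25 genes of fatty acid oxidation 11 were within 2-fold, 13 were undecided and 1 rose (4% called, against 10.1% of all genes). The 8 Langerhans and dendritic cell genes held 1 call (12.5%, near the 10.1% of all genes). It was the rise of Fscn1, an actin-bundling protein (1.16 ± 0.28, adjusted p = 0.0174). Its adjusted p was 0.0608 without 0 hours array 1, 0.09 without 14 days array 1 and 0.052 without 14 days array 2. Of 4 lymphocyte and 4 sebaceous gland genes none was called by limma, and 2 of each were within 2-fold (50%, against 69.2% of all genes). Hba-a1, a globin of red cells, fell (−1.04 ± 0.27, adjusted p = 0.0234; adjusted p = 0.0939 without 0 hours array 1, 0.055 without 14 days array 1 and 0.0992 without 14 days array 2).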
